A study of Mus musculus with 6 samples.

Results

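The 9 genes described here encode the selectins and immunoglobulin-type molecules through which leukocytes attach to and cross the vessel wall: *Sele* (E-selectin), *Selp* (P-selectin), *Selplg* (PSGL-1), *Icam1*, *Icam2*, *Vcam1*, *F11r* (JAM-A), *Jam2* (JAM-B) and *Jam3* (JAM-C). They were chosen by function and found by gene symbol among the 55341 genes of the deposited count table, and all 9 passed the filter on low counts that left 16017 genes for testing. RNA was taken from the aortic arch and thoracic aorta of mice aged 8 weeks on chow diet, after perfusion with PBS, and sequenced in 6 libraries. Neither the paper nor the labels say whether each library came from a single mouse. The miRNA-26b-/- group (libraries M2626, M2627 and M2628) lacked miRNA-26b in the whole body, and the miRNA-26b+/+ group (M2629, M2630 and M2631) was wild type, with n = 3 each. The labels give C57BL/6NCrl as the strain of both groups. The allele was made in R1/E (129/Sv) embryonic stem cells, with miRNA-26b flanked by loxP sites in intron 4 of its host gene *Ctdsp1*, and was deleted by a tamoxifen-inducible CreERT2 that was then bred out. The deletion is not restricted to the endothelium, so each knockout library reports on whole vessel wall in which every cell type lacked the miRNA. The comparison asks whether the RNA of leukocyte adhesion molecules differed between the genotypes at baseline.

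Leukocytes leave the blood in steps. E-selectin and P-selectin, displayed by activated endothelium, catch leukocytes that carry PSGL-1 and let them roll along the wall; P-selectin is stored in the Weibel-Palade bodies of endothelial cells and in platelet granules. Integrins on the leukocyte then bind ICAM-1, ICAM-2 and VCAM-1 and hold the cell firmly, and the JAM proteins of endothelial junctions take part in its passage between the cells. In the aorta this route is best known from atherosclerosis, in which VCAM-1 and ICAM-1 appear on endothelium that takes up monocytes, and VCAM-1 is also made by smooth muscle cells.

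The sequence of the deleted miRNA is shown because the site search among the adhesion genes starts from it. In these 2 mature forms from RefSeq (GRCm38.p6), read 5′ to 3′, capitals mark the seed, bases 2 to 8.
mmu-miR-26b-5p: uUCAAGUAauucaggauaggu
mmu-miR-26b-3p: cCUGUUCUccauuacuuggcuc
For each gene with a 3′ UTR in GENCODE M21 (GRCm38), the longest such UTR was scanned for TACTTGAA (8mer), TACTTGA (7mer-m8) or ACTTGAA (7mer-A1), on the gene strand, where an 8mer contains both shorter letter runs and was counted once. Of 21025 genes with such a UTR, 18.3% held at least 1 of these 3 kinds of site and 4.19% held an 8mer. Among the adhesion genes, *Vcam1* and *Jam2* held 1 site each, both 7mer-A1, and none of the other 7 held any. The sites are shown with the matched bases in capitals and 10 bases on each side.
*Vcam1* at chr3:116122445-116122471, minus strand: cactttggacACTTGAAtgttagtcct
*Jam2* at chr16:84824730-84824756, plus strand: gttttctgtgACTTGAActctaacaat
The *Vcam1* match lies at position 1223 of the 1404-base UTR of ENSMUST00000196449, which ends earlier than the longest *Vcam1* transcript, ENSMUST00000029574, where the same bases are intronic. The *Jam2* match lies at position 1921 of a UTR of 3109 bases in ENSMUST00000114195. A match is a run of letters and was not tested for binding.

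Promoters are shown for *Sele*, *Selp* and *Icam1*. Over the 6 libraries, Pearson's r of log2 CPM was 0.98 for *Sele* with *Selp*, 0.92 for *Selp* with *Icam1* and 0.84 for *Sele* with *Icam1*. *Icam2*, *Vcam1* and *Jam2* had r of 0.98, 0.95 and 0.90 with *Sele* but no promoter to show. Of the 9 genes, 4 had a promoter in the RefSeq table (GRCm38.p6), which covers 250 bases before and 50 bases after the annotated start. Capitals mark TATAAA on the gene strand, the letters of a core promoter box, found in 8.32% of 32851 promoters of the same length. They also mark GGNNNTTCC on either strand, the letters of a kappaB-type motif, found in 18.5% of them, and CCGGAA on either strand, an ETS core, found in 14.9%.
*Sele* at chr1:164047984-164048283, plus strand: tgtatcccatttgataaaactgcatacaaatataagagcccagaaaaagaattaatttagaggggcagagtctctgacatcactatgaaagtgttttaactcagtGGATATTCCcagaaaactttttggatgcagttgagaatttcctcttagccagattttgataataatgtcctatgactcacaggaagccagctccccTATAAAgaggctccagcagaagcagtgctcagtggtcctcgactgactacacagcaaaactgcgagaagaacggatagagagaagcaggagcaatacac
*Selp* at chr1:164115014-164115313, plus strand: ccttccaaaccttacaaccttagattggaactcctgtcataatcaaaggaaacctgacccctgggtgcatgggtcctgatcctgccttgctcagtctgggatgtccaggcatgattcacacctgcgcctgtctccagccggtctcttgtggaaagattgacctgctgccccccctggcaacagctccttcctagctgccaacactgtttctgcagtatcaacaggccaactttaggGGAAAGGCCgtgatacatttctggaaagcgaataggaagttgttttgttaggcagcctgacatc
*Icam1* at chr9:21015690-21015989, plus strand: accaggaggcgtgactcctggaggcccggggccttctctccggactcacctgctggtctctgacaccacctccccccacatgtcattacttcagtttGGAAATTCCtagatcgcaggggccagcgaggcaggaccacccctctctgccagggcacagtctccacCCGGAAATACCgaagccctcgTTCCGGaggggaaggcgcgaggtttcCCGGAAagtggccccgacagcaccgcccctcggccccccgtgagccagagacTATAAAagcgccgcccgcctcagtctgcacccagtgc
*Sele* held 1 TATAAA, 49 bases before the start, and 1 GGNNNTTCC, 145 bases before it. *Selp* held 1 GGNNNTTCC on the opposite strand, 14 bases before the start, and no TATAAA. *Icam1* held 2 GGNNNTTCC, 153 and 84 bases before the start, the second on the opposite strand, and 1 TATAAA that begins 13 bases after the RefSeq start. It also held 3 CCGGAA, of which that at 86 bases overlaps the second GGNNNTTCC and that at 65 bases is on the opposite strand. *F11r*, the fourth promoter, held 1 GGNNNTTCC, 29 bases after its RefSeq start. GENCODE places the *Icam1* start later than RefSeq does, at chr9:21015985, so the *Icam1* TATAAA lies before the GENCODE start. For *F11r* the GENCODE start is earlier, at chr1:171437535. All distances here are from the RefSeq start. These matches are descriptions of letters and say nothing of which factors were bound.

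The libraries held between 25706728 and 33345037 counts assigned to genes, with 17744 to 19287 genes detected in each, so a floor of 3 counts corresponds to between 0.0894 and 0.117 CPM (counts scaled to library size by TMM), a limit that covers counting error only. The deleted *Mir26b* had 20 counts in M2630 and 0 in every other library of either genotype, so these long-RNA libraries cannot check the deletion. Its host gene *Ctdsp1* lay at 188.6 ± 11.2 CPM (SD, n = 3) in miRNA-26b-/- and 164.6 ± 15.6 CPM (SD, n = 3) in miRNA-26b+/+ aortas. The labels give aortic endothelial cells as the cell type, but smooth muscle genes dominated: per kb of exon, *Acta2* reached a mean of 7370 CPM and *Myh11* 1267, against 74.6 for the endothelial gene *Pecam1*. The libraries are therefore described as vessel wall. The summed level of 15 endothelial markers, among them *Pecam1*, *Cdh5*, *Vwf* and *Tek*, was 663 CPM in M2626 and 685 in M2627, against 2050 in M2628 and 1438 to 1977 in the miRNA-26b+/+ libraries, and none of these markers was at 0 in any library. *Pecam1* and *Vwf* carry much of that sum, and the geometric mean of the 15 markers was 27.1, 30.02 and 56.2 CPM in M2626, M2627 and M2628 and 46.3 to 60.8 CPM in the wild type. By both measures M2626 and M2627 were the lowest libraries, but not for every marker: *Kdr* was lowest in M2628, at 8.83 CPM against 22.0 and 29.7 CPM in M2626 and M2627. In bulk tissue, fewer endothelial cells and less RNA per endothelial cell cannot be told apart.

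Within the wild-type aorta the adhesion genes covered a wide range. Levels per kb of annotated exon, which allow genes of different length to be compared, ran from *Jam3* at 28.7 ± 1.70 CPM per kb (SD, n = 3) down to *Sele* at 0.668 ± 0.173. *Icam2* followed *Jam3* at 17.6 ± 4.11, *Vcam1* was at 12.8 ± 2.29, *F11r* at 11.8 ± 3.36, *Jam2* at 9.79 ± 1.43 and *Icam1* at 9.35 ± 1.22. Below them came *Selp* at 6.39 ± 0.696 and *Selplg* at 0.922 ± 0.337. Neighbours from *Icam2* to *Icam1*, and also *Selplg* and *Sele*, differed by less than the sum of their SDs, whereas *Jam3* stood above *Icam2*, and *Selp* stood between *Icam1* and *Selplg*, by more than that. *Jam3* ranked at the 89.6th percentile and *Sele* at the 14th percentile of the 16017 genes tested. *Jam3* shares 36.2% of its exonic bases with the antisense gene *Gm48796*, and reads were counted without strand and for every gene they touch, so part of its level could belong to that gene.

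**Figure D1:**
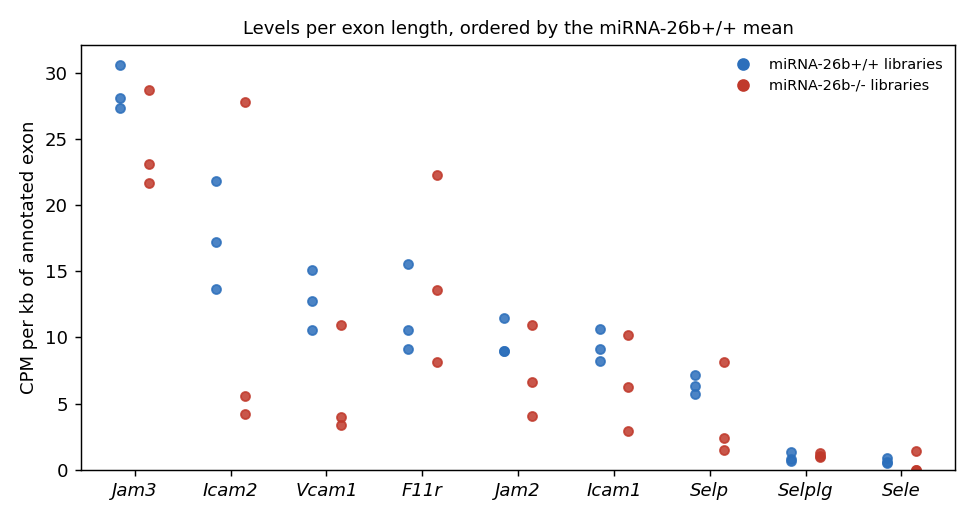
Level of each adhesion gene in CPM per kb of annotated exon (y axis), ordered by the miRNA-26b+/+ mean, with 1 point per library, 3 miRNA-26b+/+ and 3 miRNA-26b-/-. *Jam3* is highest at a wild-type mean of 28.7, *Selplg* and *Sele* lie below 1, and the miRNA-26b-/- points of *Icam2*, *Vcam1* and *Selp* are spread more widely than the miRNA-26b+/+ points.

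Between the genotypes, no adhesion gene passed an adjusted p of 0.05 with edgeR's quasi-likelihood test and Benjamini-Hochberg adjustment over all genes, a background at which 0.00624% of all genes (1 of 16017) were called. With DESeq2 and with limma voom the number was also 0, although DESeq2 gave no p for *Sele*. At an unadjusted p under 0.05, 1 of 9 passed, *Vcam1*, lower in miRNA-26b-/-, while 6.47% of all genes passed, 3.07% lower and 3.4% higher. For 0 of 9 did the levels of the groups separate without overlap, against 11.5% of all genes (5.88% lower and 5.65% higher in the knockout). The point estimates were below 0 for 7 of 9 genes, with a median log2 fold change of -0.50, beside a median of 0.01 over all genes tested. An exact two-sided permutation of 3 against 3 libraries reaches p = 0.1 at best.

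**Figure D2:**
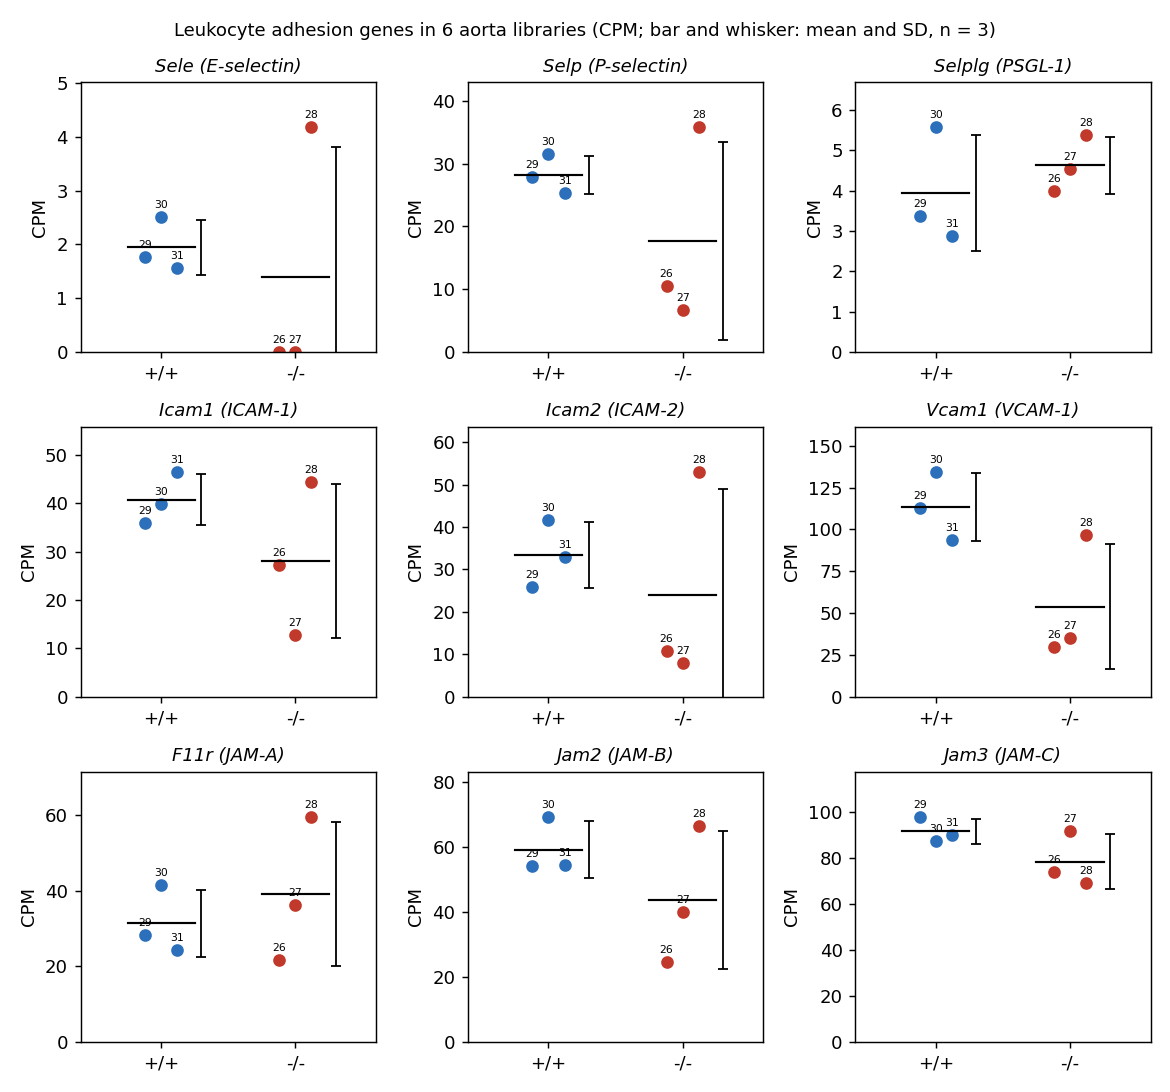
CPM (y axis, from 0) of the 9 adhesion genes in each library, marked by the last digits of its name, for miRNA-26b+/+ (M2629 to M2631) and miRNA-26b-/- (M2626 to M2628). Horizontal bars are means and whiskers SDs, n = 3, with the whisker ending at 0 where mean minus SD is negative; in *Selp*, *Icam2* and *Vcam1*, M2628 lies far above M2626 and M2627.

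*Sele* (ENSMUSG00000026582, chr1:164048234-164057677, plus strand, GRCm38, 14 exons) encodes the selectin that cytokines induce on endothelium. It received 0 counts in M2626, 0 in M2627 and 118 in M2628, against 54, 69 and 47 in M2629, M2630 and M2631. In CPM these were 0, 0 and 4.18 against 1.76, 2.51 and 1.56. E-selectin RNA was thus undetected in 2 miRNA-26b-/- libraries, each with a floor of at most 0.117 CPM, and in M2628 it was above all wild-type libraries. The fitted log2 fold change was -0.51 (SE 1.14, adjusted p = 0.975, edgeR's quasi-likelihood test with Benjamini-Hochberg adjustment). With limma voom on the same 6 libraries it was -4.21 (SE 2.45, Benjamini-Hochberg adjusted p = 0.869), so the size of this difference is not determined.

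*Selp* (ENSMUSG00000026580, chr1:164115264-164150026, plus strand, 16 exons in the transcript used) encodes P-selectin. Among the knockouts M2626, M2627 and M2628 its level was 10.5, 6.68 and 35.8 CPM, and among the wild types M2629, M2630 and M2631 it was 27.8, 31.4 and 25.3 CPM. The first pair of knockout libraries lay below, and M2628 above, all wild-type values. Across the groups, the log2 fold change was -0.70 (SE 0.43, adjusted p = 0.836, edgeR's quasi-likelihood test with Benjamini-Hochberg adjustment). *Selp* shares 9.93% of its exonic bases with the antisense gene *Gm16548* and 4.21% with *Gm16587*.

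*Selplg* (ENSMUSG00000048163, chr5:113818536-113832644, minus strand) encodes PSGL-1, the ligand of the selectins on leukocytes and is made mainly by blood-derived cells. Its level was 3.99, 4.53 and 5.39 CPM in the knockout and 3.36, 5.58 and 2.88 CPM in the wild-type libraries. The groups overlapped, and the split of M2626 and M2627 from M2628 seen in the selectins was not visible. Its log2 fold change was 0.26 (SE 0.57, adjusted p = 0.975, edgeR's quasi-likelihood test with Benjamini-Hochberg adjustment).

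*Vcam1* (ENSMUSG00000027962, chr3:116109949-116129688, minus strand, 9 exons), the ligand of the integrin VLA-4 on monocytes and lymphocytes, gave the lowest p of the set. Its level was 29.7, 35.0 and 96.8 CPM in M2626, M2627 and M2628, and 113.0, 134.3 and 93.6 CPM in the wild types. M2626 and M2627 lay far below the wild-type range, while M2628 exceeded the lowest wild-type library, M2631. The group means were 53.8 ± 37.3 and 113.7 ± 20.3 CPM (SD, n = 3 each). On the log2 scale the fitted difference was -1.08 (SE 0.32, unadjusted p = 0.00469 and adjusted p = 0.734, edgeR's quasi-likelihood test with Benjamini-Hochberg adjustment). An exact permutation test over the 6 libraries, two-sided, gave p = 0.2. The antisense gene *Gm43109* covers 0.688% of its exonic bases.

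*Icam1* (ENSMUSG00000037405, chr9:21015985-21028817, plus strand, 7 exons), a ligand of the leukocyte integrins LFA-1 and Mac-1, was at 27.2, 12.7 and 44.4 CPM in the knockout libraries and 35.9, 39.9 and 46.5 CPM in the wild-type libraries. M2627 was lowest, and M2628 lay within the wild-type range. The log2 fold change was -0.56 (SE 0.33, adjusted p = 0.813, edgeR's quasi-likelihood test with Benjamini-Hochberg adjustment). The antisense gene *Gm47079* covers 11.7% of the *Icam1* exonic bases.

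*Icam2* (ENSMUSG00000001029, chr11:106377656-106388075, minus strand, 4 exons), which endothelial cells make without stimulation, was at 10.7, 8.02 and 52.9 CPM in the knockout and 25.9, 41.6 and 32.8 CPM in the wild-type libraries. The knockout libraries held both the lowest and the highest values, so the group SD of 25.2 CPM exceeded the mean of 23.9 CPM. Its log2 fold change was -0.50 (SE 0.49, adjusted p = 0.923, edgeR's quasi-likelihood test with Benjamini-Hochberg adjustment).

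Of the JAM genes, *F11r* (ENSMUSG00000038235, chr1:171437535-171464603, plus strand, 10 exons) encodes JAM-A, found on endothelium, epithelium, platelets and leukocytes. Its level was 21.7, 36.3 and 59.4 CPM in M2626, M2627 and M2628, and 28.1, 41.4 and 24.4 CPM in the wild types. The groups overlapped, with M2626 lowest and M2628 highest of the 6 libraries. Its fitted log2 fold change was 0.34 (SE 0.32, adjusted p = 0.914, edgeR's quasi-likelihood test with Benjamini-Hochberg adjustment).

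*Jam2* (ENSMUSG00000053062, chr16:84774123-84825928, plus strand, 10 exons in the longest transcript) encodes the endothelial JAM-B, a partner of JAM-C. Its level was 24.4, 40.1 and 66.3 CPM in the knockout and 54.0, 69.2 and 54.3 CPM in the wild-type libraries. M2626 and M2627 were below, and M2628 within, the wild-type range. Between genotypes, the log2 fold change was -0.43 (SE 0.28, adjusted p = 0.848, edgeR's quasi-likelihood test with Benjamini-Hochberg adjustment).

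*Jam3* (ENSMUSG00000031990, chr9:27097384-27155421, minus strand, 9 exons) encodes JAM-C, which smooth muscle cells and fibroblasts also make. Its level was 73.9, 92.0 and 69.4 CPM in the knockout and 98.0, 87.6 and 90.0 CPM in the wild-type libraries. Here M2628 was the lowest library and M2627 lay within the wild-type range, the reverse of the order in the selectins. The log2 fold change was -0.22 (SE 0.17, adjusted p = 0.878, edgeR's quasi-likelihood test with Benjamini-Hochberg adjustment).

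Within the knockout group, most adhesion genes differed widely between libraries. M2626 and M2627 were the 2 lowest libraries for 6 of 9 adhesion genes, namely *Sele*, *Selp*, *Icam1*, *Icam2*, *Vcam1* and *Jam2*, against 9.95% of all genes tested, a pattern that was noticed in these values and then counted. The same libraries were lowest for 8 of 15 endothelial markers, 10 of 18 tested leukocyte markers and 5 of 7 fibroblast markers, and for none of the 8 smooth muscle markers. Across the 6 libraries, log2 CPM of *Sele*, *Selp* and *Icam2* correlated with Pearson's r of 0.98 in each pair, and *Vcam1* with r of 0.91 to 0.95 against each of them. *Jam3* had r between -0.18 and 0.24 with these genes, and *Selplg* between 0.05 and 0.18. These values describe 6 libraries that the genes share and carry no test. Those of *Sele* also depend on the small offset added before taking logs, because M2626 and M2627 had 0 counts of it.

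**Figure D3:**
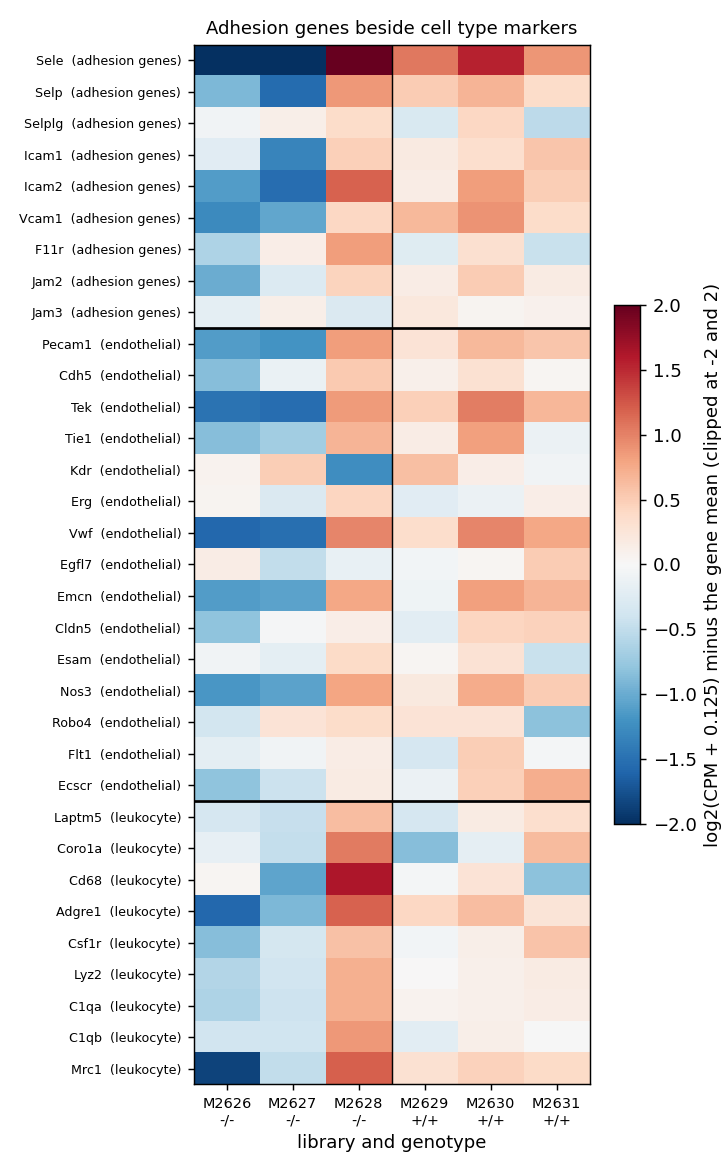
Colour shows log2 CPM (with the small offset named on the scale) minus the gene's mean over the 6 libraries (scale clipped at -2 and 2) for the 9 adhesion genes, 15 endothelial markers and the 9 leukocyte markers with a mean of at least 10 CPM, with libraries as columns. M2626 and M2627 are blue for *Sele*, *Selp*, *Icam2* and *Vcam1* as for *Pecam1*, *Vwf*, *Tek* and *Nos3*. They are not the 2 lowest libraries for 7 of the 15 endothelial markers (*Kdr*, *Erg*, *Egfl7*, *Cldn5*, *Esam*, *Robo4* and *Flt1*). For the adhesion genes M2628 is red in all but *Jam3*.

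Markers of different cell types varied in whether they were low in M2626 and M2627. *Pecam1*, the junctional molecule CD31, was at 184.6, 174.6 and 716 CPM in M2626, M2627 and M2628, and 488 to 631 CPM in the wild-type libraries. *Vwf*, the major content of Weibel-Palade bodies, was at 103 and 107 CPM in M2626 and M2627, against 604 in M2628 and 390 to 602 CPM in the wild type. The summed level of the leukocyte markers was 343, 403 and 955 CPM in M2626, M2627 and M2628 and 564 to 663 CPM in the wild type. Their most abundant members, *Lyz2* and *Csf1r* of macrophages, averaged 211 and 77.5 CPM in the knockout and 220 and 96.4 CPM in the wild type. The T cell gene *Cd3e* had 0 counts in every library. Another T cell gene, *Cd3g*, had 31 counts in M2629, 61 in M2631, 1 in M2627 and 0 elsewhere. The fibroblast markers summed to 4951, 5470 and 8679 CPM in the knockout and 5437 to 6296 CPM in the wild type, led by *Col1a1* and *Dcn*, and the smooth muscle markers to 41578, 36984 and 32989 CPM against 35905 to 44290. Of these lists, 1 of 15 endothelial markers (*Tek*) and 1 of 18 tested leukocyte markers (*S100a9*) had an unadjusted p under 0.05. The same held for 1 of 7 fibroblast markers (*Col6a3*) and 0 of 8 smooth muscle markers. All 3 genes were lower in the knockout and none passed adjustment. Over all genes tested, 6.47% passed the unadjusted threshold, 3.07% lower in the knockout. The part of these cell types in the adhesion gene levels was not tested.

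Expressed relative to endothelial RNA, the picture differed between the genes. For each library, log2 CPM of the gene was set against the mean log2 CPM of the 15 endothelial markers. On that scale the groups did not overlap for 3 of 9 adhesion genes, while 13.4% of all genes did not overlap, 0.774% lower and 12.6% higher in the knockout. *Vcam1* was the gene that was lower, with a log2 difference of 0.14, 0.23 and 0.79 from the endothelial mean in the knockout and 1.29, 1.15 and 0.88 in the wild-type libraries. This is a difference of -0.72 between the groups (exact permutation test, two-sided, p = 0.1, the smallest that 3 against 3 allows). *F11r* was higher in the knockout by 0.79 and *Selplg* by 0.82 on the same log2 scale (exact permutation test, two-sided, p = 0.1 for each). By level the groups overlapped for both genes, and the marker mean used as reference was lowest in M2626 and M2627. The other 6 genes overlapped, with differences of -1.77 for *Sele*, -0.49 for *Selp*, -0.43 for *Icam2*, -0.16 for *Icam1*, 0.00 for *Jam2* and 0.31 for *Jam3*. The size for *Sele* depends on the small offset added before taking logs, because M2626 and M2627 had 0 counts of it. With *Pecam1* and *Cdh5* as the only reference genes, 2 of 9 did not overlap, *Vcam1* and *F11r*, against 8.14% of all genes, and *Selplg* overlapped (exact permutation test, two-sided, p = 0.2).

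Whether adhesion genes passed the threshold depended on library M2628. Without it, 3 of 9 adhesion genes passed an adjusted p of 0.05, all lower in the knockout, where 0.524% of all genes passed, and 6 of 9 had an unadjusted p under 0.05, against 10.8% of all genes. The groups then did not overlap for 6 of 9 by level, against 26.5% of all genes, and for 7 of 9 relative to endothelial RNA, against 67.7%. The log2 fold change of *Vcam1* was then -1.80 (SE 0.22, adjusted p = 0.000502, edgeR's quasi-likelihood test with Benjamini-Hochberg adjustment). That of *Icam2* was -1.86 (SE 0.35, adjusted p = 0.0203 in the same test) and that of *Selp* -1.75 (SE 0.35, adjusted p = 0.0311 in the same test). The endothelial genes *Pecam1* and *Vwf* were lower in this setting as well, with log2 fold changes of -1.67 and -2.26 (adjusted p = 4.18e-05 and 2.28e-05, edgeR's quasi-likelihood test with Benjamini-Hochberg adjustment). *Podxl*, a sialomucin of the endothelial surface, was also lower, at -1.06 (adjusted p = 0.0273 in the same test). Not every endothelial marker was low in M2626 and M2627, which were the 2 lowest libraries for 8 of 15. There *Esam* was at 42.4 and 38.7 CPM against 32.8 to 54.5 CPM in the wild type, and *Kdr* and *Flt1* also lay within the wild-type range. With M2626 and M2627 left out instead, an alternative chosen after seeing the data that leaves 1 knockout library assumed to vary like the others, no adhesion gene passed adjustment and 2 of 9, *Icam2* and *F11r*, had an unadjusted p under 0.05, against 9.37% of all genes. By level 5 of 9 did not overlap, against 55.8% of all genes, and relative to endothelial RNA 8 of 9, against 51.1%. The log2 fold changes then were -0.23 for *Vcam1*, 0.66 for *Icam2*, 0.34 for *Selp*, 0.12 for *Icam1*, 0.16 for *Jam2*, 1.11 for *Sele* and 0.93 for *F11r*. No label accounts for the difference between M2628 and the other miRNA-26b-/- libraries.

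**Figure D4:**
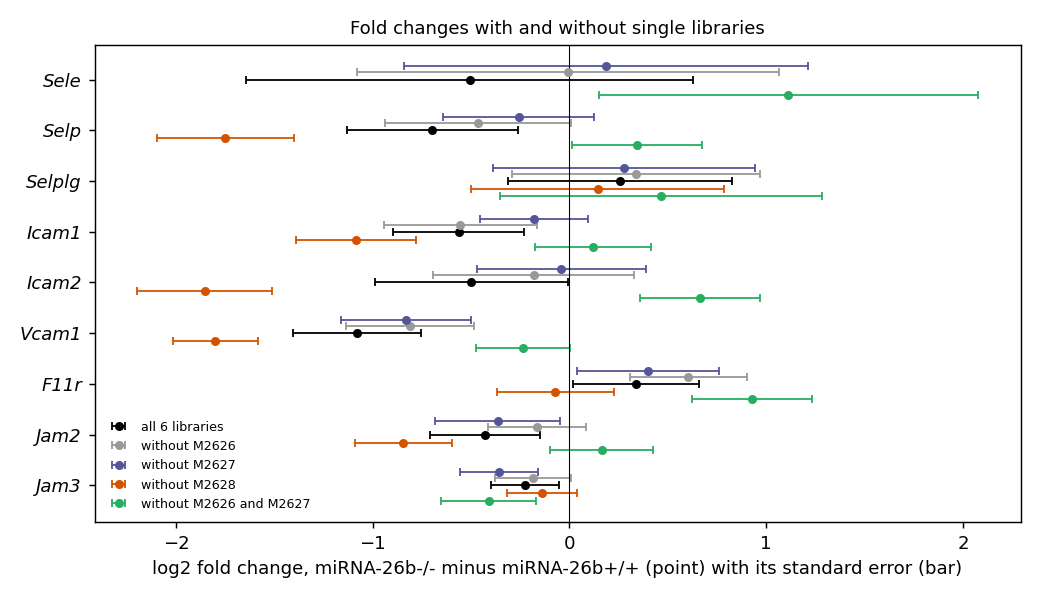
Log2 fold change (x axis, miRNA-26b-/- minus miRNA-26b+/+; points with standard error bars) of each adhesion gene with all 6 libraries, without M2626, M2627 or M2628, and without M2626 and M2627 together. Without M2628 the values of *Selp*, *Icam2* and *Vcam1* lie between -1.86 and -1.75, and without M2626 and M2627 those of *Selp* and *Icam2* lie above 0; *Sele* without M2628 is left out, since its knockout counts are then all 0.

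Around the adhesion molecules, none of the other genes of leukocyte entry passed adjustment, while 10 had an unadjusted p under 0.05. *Pecam1*, *Cdh5*, *Esam*, *Emcn* and *Vwf* stand in a pathway list as well as among the endothelial markers. Among integrins that bind these molecules, 2 of 8 tested had an unadjusted p under 0.05, both lower in the knockout, beside the 6.47% of all genes, and the 3.07% lower, that hold for each list below. *Itgb1*, the beta subunit shared by VLA-4 and other integrins and abundant in smooth muscle, was at 2219 ± 126 CPM against 2737 ± 81.6 CPM (SD, n = 3 each), with a log2 difference of -0.30 (SE 0.11, adjusted p = 0.736, edgeR's quasi-likelihood test with Benjamini-Hochberg adjustment). *Itga9*, an alpha subunit that binds VCAM-1, had a log2 fold change of -0.28 (SE 0.13). The levels of both did not overlap between the groups, and neither gene had M2626 and M2627 as its lowest libraries.

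Of the selectin ligands and the enzymes that glycosylate them, 3 of 17 tested had an unadjusted p under 0.05, all lower in the knockout. *Gcnt1*, an enzyme that builds the core of selectin ligands, had a log2 fold change of -0.98 (SE 0.42), with overlapping groups. *Glg1*, a ligand of E-selectin, had a log2 fold change of -0.28 (SE 0.13) without overlap. *Cd34*, a sialomucin of endothelium and fibroblasts and among the most abundant of this list per kb, averaged 236 CPM in the knockout and 274 CPM in the wild type.

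Of 15 tested molecules with related roles in transmigration, 1 was lower and 2 were higher at an unadjusted p under 0.05. *Mcam* (CD146) of smooth muscle and endothelium was at 1019 ± 119 CPM in the knockout against 1252 ± 159 CPM in the wild type (SD, n = 3 each), with a log2 difference of -0.30. The nectin family members *Pvr* and *Nectin2* had log2 fold changes of 0.74 and 0.72 and averaged 22.5 and 16.2 CPM in the knockout against 13.5 and 9.94 CPM in the wild type. *Bcam*, abundant per kb in this list, had a log2 fold change of -0.03. Of 20 cytoplasmic partners that link ICAM, VCAM and JAM to the cytoskeleton, 2 were lower at that threshold: *Actn1*, the actin cross-linker alpha-actinin, with a log2 fold change of -0.31 (SE 0.12), and *Trio*, a guanine nucleotide exchange factor, with -0.46 (SE 0.15). *Flna*, a filamin and the most abundant of these per kb, had a log2 fold change of -0.20.

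The inducers and repressors of endothelial adhesion genes gave 0 of 17 past an unadjusted p of 0.05, with a median log2 fold change of -0.21. *Tnf*, the cytokine that most strongly induces E-selectin, had 0 counts in all 6 libraries. Its receptor gene *Tnfrsf1a* averaged 112 CPM in the knockout and 109 CPM in the wild type, and *Klf2*, a flow-responsive factor that restrains endothelial adhesion genes, 94.2 and 109 CPM. Genes of shedding and of Weibel-Palade bodies gave 0 of 12 past that threshold, with *Timp3*, an inhibitor of sheddases, at a log2 fold change of -0.13 and *Cd63*, a tetraspanin of these bodies, at 0.06. The median log2 fold changes of the remaining lists were -0.29 for the integrins, -0.28 for the selectin ligands, 0.04 for the other molecules of transmigration and -0.13 for the cytoplasmic partners, beside 0.01 over all genes.

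**Figure D5:**
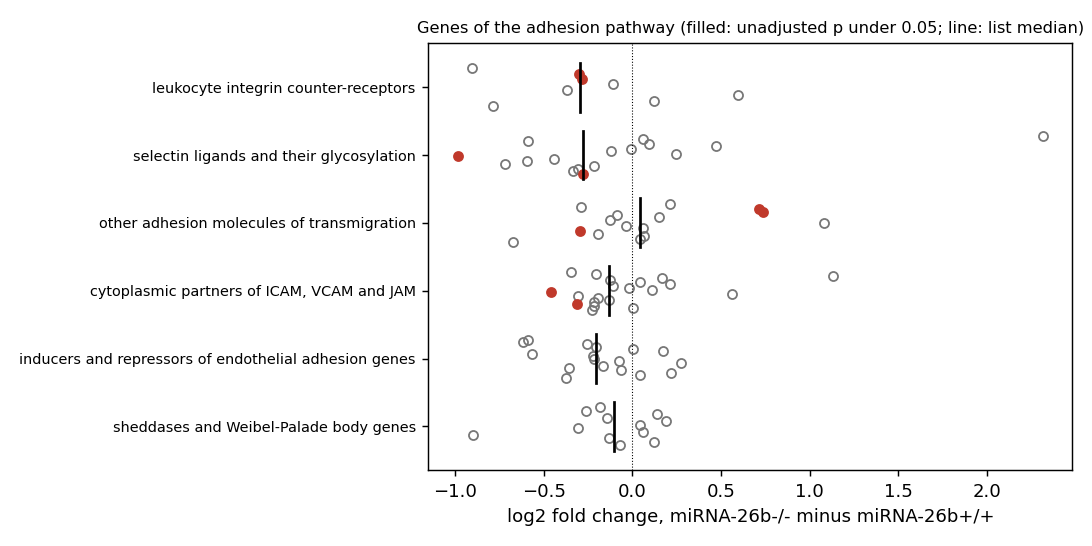
Log2 fold change (x axis, miRNA-26b-/- minus miRNA-26b+/+) of the tested genes in each list of the leukocyte entry pathway (rows), with 1 point per gene, filled where the unadjusted p was under 0.05, and a line at the list median. No point passed adjustment, medians lie between -0.29 and 0.04, and 1 gene of the selectin ligand list is not drawn.

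By likeness of pattern over the 6 libraries, measured as Pearson's r of log2 CPM among genes with a mean of at least 10 CPM, the 2 closest genes to each adhesion gene were as follows. *Sele* was closest to *Thbs1*, the matrix protein thrombospondin, and to the cysteine protease gene *Ctss* (r = 0.997 for both). *Selp* was closest to *Palld* and *Naalad2*, *Icam1* to *Acer2* and *Lsr*, and *Icam2* to *Kdm3b* and *Cgnl1*, with r between 0.992 and 0.996. *Vcam1* was closest to *Olfr1033* and *Akap10* (r = 0.990 and 0.987), and *Jam2* to *Abca8a* and *Rasip1*, an endothelial regulator of GTPases (r = 0.995 for both). *F11r* was closest to *Tiam2* and *Adam22* (r = 0.997 and 0.992), *Selplg* to *Tbc1d14* and *Cmc2* (r = 0.992 and 0.979), and *Jam3* to *Ric3* and *Vps45* (r = 0.980 and 0.975). With 6 libraries and many genes, these values describe the order of the libraries only. Those of *Sele* also depend on the offset that stands in for its 0 counts in M2626 and M2627. In level, *Thbs1* was at 53.3 and 56.0 CPM in M2626 and M2627, 286 in M2628 and 175 to 201 in the wild type. *Lsr* shares 43.6% of its exonic bases with an antisense gene, so its reads cannot be assigned to it alone.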

How the data were processed

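Aortic RNA of miRNA-26b-/- and miRNA-26b+/+ mice was sequenced from Illumina TruSeq libraries, 3 per genotype. The authors aligned reads with STAR to GRCm38 and deposited raw counts per gene, made with featureCounts 1.6.4 over GENCODE M21 exons, unstranded, a read that touched several genes being counted for all of them. A second deposited table holds the authors' normalized values and their fold changes and p-values for this comparison, and was not used.

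Genes were kept if 2 or more libraries exceeded 1 CPM and the counts summed to 2 or more, and tested with edgeR 4.0.16 (TMM, quasi-likelihood test, prior count 0.125 for fold changes; R 4.3.3), with Benjamini-Hochberg adjustment over all genes tested. Single values relative to endothelial markers were compared by exact permutation over libraries. The procedure was tested on simulated data. Libraries held 25706728 to 33345037 counts. Labels do not say more of the mice behind each library, so p-values measure the spread between these libraries.

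The 9 genes and the 15 lists of pathway and marker genes were chosen with earlier results of these data known. Genes named are mainly the members, *Mir26b*, *Ctdsp1*, pathway genes with a p under 0.05, the 2 most abundant of each list, and the 2 genes most alike each member. The values of some of these are left out of this text. Alternatives were the normalization, DESeq2 1.42.0, limma 3.58.1 voom, edgeR's likelihood ratio test and robust shrinkage, the filter, the prior count, other reference genes and leaving out each library. edgeR's earlier quasi-likelihood method, leaving out M2626 and M2627 together, and all alternatives for the pathway genes were chosen after seeing the data.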

Additional observations from a re-analysis of the deposited data

How the results depend on the processing

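No adhesion gene passed adjustment in any alternative that kept all 6 libraries, and the direction of all 9 fold changes held in those. At an unadjusted p under 0.05 the number of adhesion genes was 1 with all libraries, 4 with limma voom (*Selp*, *Icam1*, *Icam2* and *Vcam1*) and 0 with robust shrinkage, and 2 without M2626 and M2627 together. For limma voom and robust shrinkage the share of all genes at that threshold is not given, so 4 and 0 cannot be set against a background. Leaving out each library in turn gave 0 to 3 adhesion genes past adjustment, 1 to 6 at the unadjusted threshold, 0 to 6 whose groups did not overlap and 3 to 7 that did not overlap relative to endothelial RNA. In every case the highest number came without M2628. Without M2626 and M2627 together, 5 did not overlap by level and 8 relative to endothelial RNA, where the lone library also left 55.8% and 51.1% of all genes without overlap. Among the pathway genes, 1 passed adjustment with DESeq2, and 3 had an unadjusted p under 0.05 with the likelihood ratio test. Leaving out a library gave 0 to 3 past adjustment and 3 to 23 at the unadjusted threshold. The fewest at the unadjusted threshold came without M2630 and the most at both without M2628. Without M2628, 0.524% of all genes passed adjustment and 10.8% the unadjusted threshold. For the other settings the share of all genes is not given, so those numbers cannot be set against a background.

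The log2 fold change turned sign for *Sele* without M2627 (0.18) and for *F11r* without M2628 (-0.071). Leaving out each library gave -8.83 to 0.18 for *Sele*, where the lowest value comes from knockout counts that are all 0 and is no bound, and -0.071 to 0.60 for *F11r*. The others ranged from -1.75 to -0.26 for *Selp*, -1.08 to -0.18 for *Icam1*, -1.86 to -0.042 for *Icam2*, -1.80 to -0.81 for *Vcam1*, -0.84 to -0.17 for *Jam2*, -0.36 to -0.14 for *Jam3* and 0.066 to 0.58 for *Selplg*. Of these, *Selp*, *Icam1* and *Icam2* were nearest 0 without M2627 and *Vcam1* and *Jam2* without M2626. With limma voom, the values were -4.21 for *Sele*, -1.09 for *Selp* and -1.02 for *Icam2*, over 1.5 times those of edgeR. Without M2626 and M2627 together it turned sign for *Sele* (1.11), *Selp* (0.34), *Icam1* (0.12), *Icam2* (0.66) and *Jam2* (0.16). The cause was not tested. No paired analysis was possible because the labels carry no replicate numbers. *Sele* and *Selplg*, with at most 153 counts in a library, are those the depth limits most.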

Other observations

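Genes of nerve and fat also varied among the libraries. Of 6 tested Schwann cell markers, 5 had an unadjusted p under 0.05 and were higher in miRNA-26b-/- aortas, without passing adjustment. Of all genes tested, 6.47% passed that threshold, 3.07% lower and 3.4% higher, a share that holds for each list below. The Schwann cell markers summed to 218, 182 and 147 CPM in M2626, M2627 and M2628 and to 54.4 to 99.5 CPM in the miRNA-26b+/+ libraries. These sums did not overlap between the groups, as held for 11.5% of all single genes tested. Of the Schwann cell markers, *Cnp*, an enzyme of myelin-forming cells, had a log2 fold change of 0.79 (SE 0.25, adjusted p = 0.736, edgeR's quasi-likelihood test with Benjamini-Hochberg adjustment). Markers of sympathetic neurons summed to 254.8 CPM in M2627 and 55.1 CPM in M2630, and to between 9.43 and 24.1 CPM in the other libraries, with *Dbh* and *Th*, enzymes of noradrenaline synthesis, detected in M2627 and M2630 alone, and *Stmn2* highest in M2627 at 39.6 CPM. The adipocyte markers, led by *Cfd* and *Fabp4*, were highest in M2627 with a sum of 2889 CPM, against 680 to 1907 CPM elsewhere. Platelet markers, led by *Gp1bb* and *Pf4*, summed to 38.2 to 49.7 CPM in the knockout and 35.2 to 35.6 CPM in the wild type, with 0 of 5 tested past an unadjusted p of 0.05. Mesothelial markers, led by *Upk3b* and *Msln*, summed to between 8.79 and 24.95 CPM, with 1 of 5 tested (*Lrrn4*) lower at that threshold. The part of these tissues in the adhesion gene levels was not tested.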
